A study of Mus musculus with 19 samples.

Results

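Ribosome-bound mRNA of 33 ion channel genes was compared between old and young mice in both kinds of spiny projection neuron of the striatum. The genes were taken from a list of symbols matched to the Ensembl gene IDs of the tables, and 33 of the 39017 genes listed were members. They comprised 4 pore-forming and 3 auxiliary subunits of voltage-gated sodium channels, 8 pores, 4 alpha2delta and 4 beta subunits of voltage-gated calcium channels, 3 HCN channels with the leak channel Nalcn, and 6 channels that release calcium from internal stores. Of these, 32 passed the filter on low counts and were tested; the IP3 receptor gene Itpr3, with at most 0.39 TPM in any library, did not pass.

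Translating ribosome affinity purification (TRAP) pulls down a tagged ribosomal protein, EGFP-L10a, with the mRNA bound to it. The old D1 group held 4 libraries from striata of female Drd1::EGFP-L10a mice aged 2 years, and the young D1 group 4 libraries from such mice aged 42 days. The old D2 and young D2 groups held 4 libraries each from female Drd2::EGFP-L10a mice of the same 2 ages. All mice are labelled as being on a C56BL/6J background, and every group carries a tagged-ribosome transgene named for the receptor gene that drives it. Any cell that uses that receptor gene can therefore contribute mRNA. Each group is described as 4 biological replicates in the design text; whether animals were pooled is not stated, and replicate numbers only name a library. The labels give each library an index sequence, and the second part of the old D1 index occurs in no other group, so that index and group cannot be told apart. A further 3 samples of the series are ribosome profiling of the mouse fibroblast line NIH-3T3, with paraquat or a small interfering RNA, and are not analysed here.

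Voltage-gated sodium channels carry the rising phase of the action potential. Their alpha subunit forms the pore, and beta subunits tune its gating and place it in the membrane. Voltage-gated calcium channels have an alpha1 pore, an outer alpha2delta subunit that promotes surface delivery and an inner beta subunit that promotes exit from the endoplasmic reticulum and shapes gating. HCN channels pass a cation current on hyperpolarization, and Nalcn passes a resting sodium leak. IP3 receptors and ryanodine receptors let calcium out of the endoplasmic reticulum, and in spiny projection neurons the IP3 receptor acts downstream of glutamate receptors that couple to Gq.

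Assigned fragments per library numbered 34844870 to 50379824 in old D1, 39563383 to 56890627 in young D1, 27484038 to 70903004 in old D2 and 39555507 to 55439700 in young D2. The old D1 libraries stood apart. Between 10364 and 13694 genes were detected in them, compared with 12770 to 14992 in the remaining 12 libraries. Fragments averaged 151 to 164 bases in old D1 and 170 to 195 bases in the remaining libraries. The single gene Gm42418 took 4.45 to 5.41% of the counts in old D1 and 9.76 to 18.2% in the remaining libraries. The r between old D1 libraries across genes was 0.754 to 0.83, under that within any other group (0.841 to 0.917). The 6 D1 neuron markers summed to 4600 to 7380 TPM in old D1 and 2460 to 3230 TPM in young D1, against 411 to 656 TPM in old D2 and 133 to 154 TPM in young D2. Most of the sum in D1 was Tac1, with a mean of 4050 TPM in old D1 and 1620 TPM in young D1. Chrm4 was lower in old D1, at a mean of 51 against 88.6 TPM in young D1, while the rest had higher means in old D1. The D2 marker sum was 112 to 551 TPM in old D1 and 108 to 223 TPM in young D1, against 5460 to 11500 TPM in old D2 and 7620 to 8850 TPM in young D2. The markers shared by both kinds summed to 4100 to 4350 TPM in old D1 and 5130 to 6500 TPM in young D1, which did not overlap, and to 6730 to 7440 TPM in old D2 and 7580 to 9100 TPM in young D2. Markers of other cell types were lower and uneven. GABAergic interneuron markers summed to 30.5 to 546 TPM in old D1, with 509 TPM of Sst in old D1 library 3, against 62.1 to 140.0 TPM in young D1. Glutamatergic markers summed to 0.09 to 139 TPM in old D1, with 139 TPM of Tbr1 in old D1 library 4, against at most 17.8 TPM elsewhere. Cholinergic interneuron markers summed to 0 to 5.14 TPM in the D1 libraries, against 5.91 to 26.7 TPM in the D2 libraries. Astrocyte markers were lowest in young D2, at 1.83 to 4.62 TPM, against 25.2 to 39.4 TPM in old D2, 16.8 to 25.2 TPM in old D1 and 8.93 to 20.6 TPM in young D1. Oligodendrocyte markers summed to 75.6 to 190.0 TPM in old D1 and to 127 to 353 TPM in the other groups. Microglial and endothelial markers stayed at or under 18 TPM in every library, and C1qa and Tek were at 0 in all of them. The part of these differences in the results below was not tested, and in such bulk samples fewer cells of a type and less RNA per cell cannot be told apart.

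The auxiliary subunits stood among the most abundant of the channel messages. By mean TPM over the 16 libraries, a unit that scales by length and so allows genes to be compared, the highest were Scn4b at 358, Itpr1 at 230.0, Scn2b at 228, Cacnb4 at 204, Cacnb2 at 139, Scn3b at 132, Cacnb3 at 106 and Cacna2d2 at 104 TPM. The eighth place is not firm, since a retained-intron transcript of 604 bases, Cacna2d2-206, held a mean of 39.4% of the TPM of Cacna2d2 over the libraries but 8.71% of its count. No voltage-gated pore was among these 8, with the sodium pore Scn2a just under Cacna2d2 at 99.5 TPM, followed by Scn8a at 77.1, Scn1a at 61.8 and Scn3a at 22.6 TPM. The highest calcium pore was the R-type Cacna1e at 46.8 TPM, followed by the N-type Cacna1b at 27.5 and the T-type Cacna1h at 23.5 TPM. At the low end, Cacna2d4, Hcn3, Hcn4, Itpr2, Itpr3 and Ryr1 averaged under 1 TPM.

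**Figure D1:**
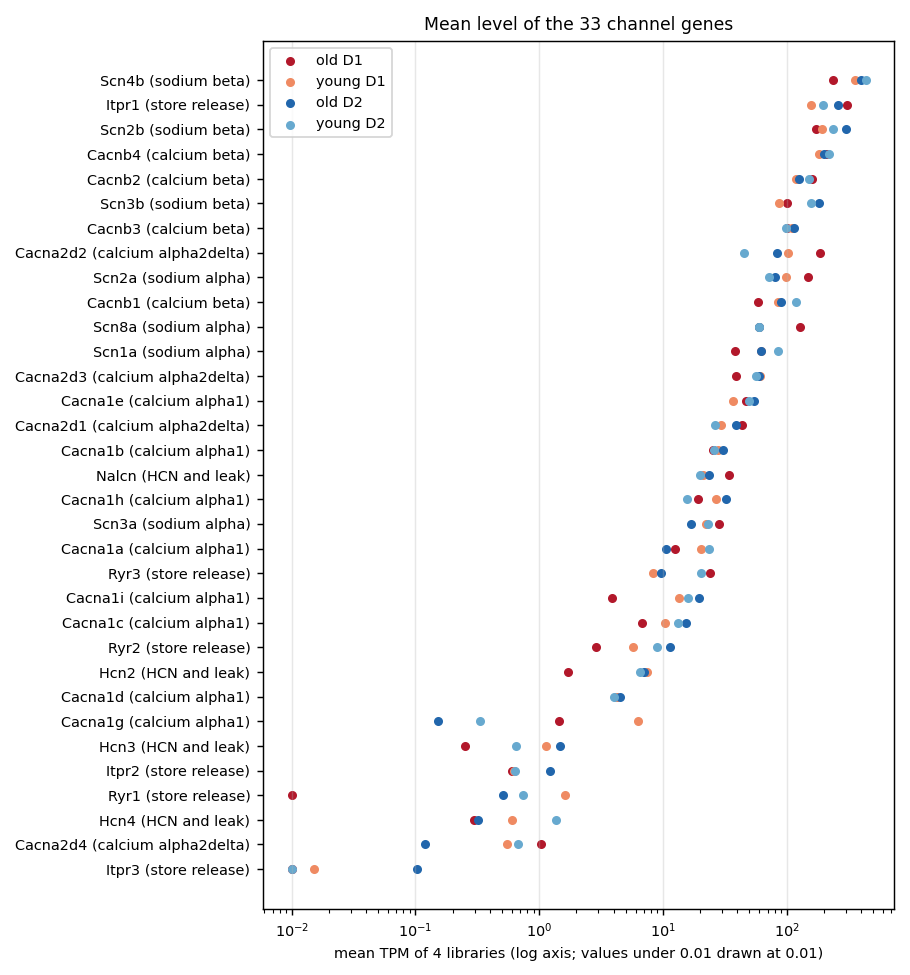
Mean TPM of the 33 channel genes (log axis) by group, ordered by the mean over the 16 libraries, with the class of each gene in parentheses and each point the mean of 4 libraries. Scn4b, at 358 TPM over all libraries, heads the order, and Ryr1 and Cacna1i show the old D1 point well to the left of the other groups.

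Summed by class, the sodium pores came to 343 ± 93.3 TPM in old D1 and 242 ± 23.8 TPM in young D1, and the sodium beta subunits to 513 ± 89.4 TPM in old D1 and 635 ± 47.7 TPM in young D1 (SD, n = 4 each, here and below). In D2 neurons the sodium pores summed to 220.0 ± 39.6 TPM in old and 239 ± 25.1 TPM in young mice, and the sodium beta subunits to 887 ± 258 TPM in old and 832 ± 95.3 TPM in young mice. Beta subunits thus summed to less in each D1 library, at 431 to 701 TPM, than the 710 to 941 TPM of young D2, while old D2 reached down to 648 TPM. Store-release channels summed to 337 ± 41.3 TPM in old D1 and 175 ± 31.6 TPM in young D1 with no overlap, and to 281 ± 33.1 TPM in old D2 and 227 ± 20.8 TPM in young D2. Most of this sum was Itpr1, which averaged 309 TPM in old D1 and 159 TPM in young D1. Apart from it, only Ryr3 had a higher mean in old than in young D1. Calcium pores summed to 120.0 ± 4.31 TPM in old D1 and 146 ± 26.1 TPM in young D1, and to 167 ± 55.6 TPM in old D2 and 149 ± 20.8 TPM in young D2. Calcium beta subunits stayed between 498 and 590.0 TPM in all 4 group means. The class sums were not tested as such.

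With age, 4 of the 32 tested channel genes changed in D1 neurons at an adjusted p under 0.05 (edgeR's robust quasi-likelihood test, two-sided, Benjamini-Hochberg adjustment over 13926 genes). Itpr1 rose, and Scn4b, Cacna1i and Ryr1 fell. Over all genes tested, 10.8% were called in this comparison, 5.39% higher and 5.44% lower, so the share of members called, 12.5%, lay near the background. The median log2 fold change of the members, old over young, was -0.27, against -0.06 over all genes, and 9 members had an unadjusted p under 0.05. In 6 members, namely Scn2a, Scn8a, Scn4b, Cacna1i, Itpr1 and Ryr1, the 4 old and 4 young D1 libraries did not overlap in TPM, as was true of 13.8% of all genes.

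In D2 neurons 0 of the 32 channel genes were called with age. The median log2 fold change of the members was 0.04, against 0.01 over all genes, of which 0.079% were called. Cacnb1, Cacna1h and Ryr3 had an unadjusted p under 0.05, DESeq2 called 0 members, and no member had old and young D2 libraries without overlap, against 7.07% of all genes. The change in D1 minus that in D2 was itself past the threshold for 0 of the 32 members, with 7 at an unadjusted p under 0.05, against 1.77% called over all genes. DESeq2 called this difference for 3 members, Cacna1i, Cacnb2 and Ryr1. The age changes in D1 neurons are therefore not shown to differ from those in D2 neurons by the edgeR test.

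Between the neuron types, 0 members were called at 42 days and 7 at 2 years. At 42 days 0.409% of all genes were called, and Scn3b, Cacnb2 and Scn2a had an unadjusted p under 0.05; DESeq2 called 0 members and voom 1, Cacnb2. In 5 members, Scn2a, Scn2b, Scn3b, Ryr1 and Ryr3, the young D1 and young D2 libraries did not overlap, against 6.35% of all genes. At 2 years Scn2a and Scn8a were higher in D1 neurons, and Scn2b, Scn4b, Cacna1i, Ryr1 and Ryr2 were lower. The background at this age was 9.6% of all genes, 5.02% higher and 4.58% lower in D1, and 13 members had an unadjusted p under 0.05. In 7 members the old D1 and old D2 libraries did not overlap, namely Scn2a, Scn2b, Cacna1c, Cacna1i, Cacna2d3, Hcn2 and Ryr1, against 14.8% of all genes. The age comparison in D1 and the type comparison at 2 years share the old D1 libraries.

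**Figure D2:**
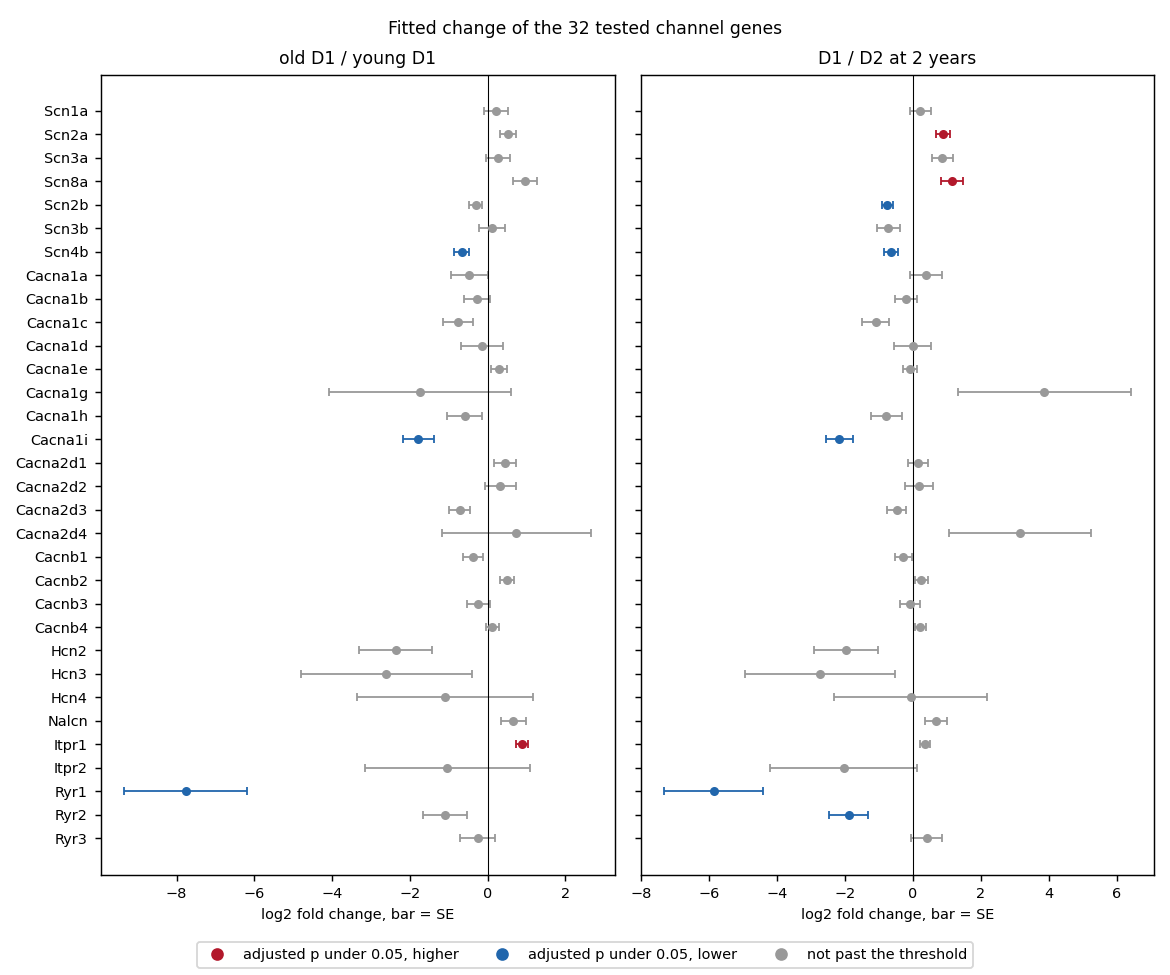
Fitted log2 fold change of the 32 tested channel genes, with its SE as a bar, for old over young D1 neurons (left) and for D1 over D2 neurons at 2 years (right). Red and blue points passed an adjusted p under 0.05, 1 higher and 3 lower on the left, 2 higher and 5 lower on the right.

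Among the sodium pores, Scn2a and Scn8a were higher in D1 than in D2 neurons at 2 years. Scn2a (Nav1.2, on chromosome 2 at chr2:65620771-65767447, plus strand, GRCm38) is the main pore of unmyelinated axons and of the developing axon initial segment. It measured 171, 117, 117 and 185 TPM in old D1, 109, 96.5, 107 and 78.8 TPM in young D1, 91.2, 78.4, 84.5 and 69 TPM in old D2 and 67.7, 76.3, 73.3 and 71.4 TPM in young D2. Every old D1 library lay above every other library, and every young D1 library lay above every young D2 library. The log2 fold change of D1 over D2 was 0.89 (SE 0.20, adjusted p = 0.00894) at 2 years and 0.48 (SE 0.20, adjusted p = 0.696) at 42 days, and that of old over young D1 was 0.52 (SE 0.20, adjusted p = 0.0994), with the opposite sign once the trend of counts with GC content and length was removed (log2 -0.38, adjusted p = 0.258). The call at 2 years was lost with that trend removed (log2 0.23, adjusted p = 0.546) and when only the compared groups were fitted (adjusted p = 0.079).

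Scn8a (Nav1.6, chr15:100869858-101045938, plus strand) is the pore that dominates the mature axon initial segment and nodes. It measured 139, 83, 80 and 213 TPM in old D1, 50.9, 62.3, 55.7 and 72 TPM in young D1, 89.4, 50.7, 61.5 and 38.5 TPM in old D2 and 57.8, 54.1, 43.9 and 81.3 TPM in young D2. Old D1 libraries 1 and 4 were the highest of all, while libraries 2 and 3 lay just above the young D1 range and under old D2 library 1. D1 over D2 at 2 years gave a log2 fold change of 1.15 (SE 0.32, adjusted p = 0.0293). That of old over young D1 was 0.96 (SE 0.32, adjusted p = 0.0605), not past the threshold; DESeq2 called it (adjusted p = 0.0299), as did the fits without old D1 library 2 or 3 (adjusted p = 0.0379 and 0.0232). The call at 2 years was lost without old D1 library 4 or old D2 library 2, 3 or 4 (log2 0.70 to 1.17, adjusted p = 0.0651 to 0.116), with voom, in the TPM fits and with only the compared groups (adjusted p = 0.0545 to 0.142).

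Scn1a (Nav1.1, the pore typical of fast-spiking interneurons) ranged over 17.9 to 50.2 TPM in old D1, 38.7 to 78.2 TPM in young D1 and 30 to 124 TPM in D2 neurons. Its log2 fold change of old over young D1, fitted on counts, was 0.22 (SE 0.31, adjusted p = 0.718), while its mean TPM was lower in old D1, at 38.5 ± 14.1 TPM, than in young D1, at 61.8 ± 16.7 TPM. A transcript of 660 bases, Scn1a-206, held a mean of 38.3% of its TPM over the libraries but 5.95% of its count. Scn3a (Nav1.3, an embryonic form) ranged over 12.5 to 44.5 TPM in old D1, 18.7 to 28.4 TPM in young D1 and 13.3 to 31.7 TPM in D2 neurons. Neither Scn1a nor Scn3a was past the threshold in any of the comparisons. For Scn3a, D1 over D2 at 2 years was log2 0.86 (SE 0.31, adjusted p = 0.0839), which DESeq2 called (adjusted p = 0.0381), as did the fit without old D1 library 4 (log2 1.06, adjusted p = 0.0259). Scn3a, Scn2a and Scn1a are neighbours on chromosome 2, with 53144 bases between Scn3a and Scn2a and 503331 bases between Scn2a and Scn1a.

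Of the sodium beta subunits, Scn4b was lower in old D1 neurons than in both young D1 and old D2 neurons. Scn4b (chr9:45138395-45154152, plus strand) encodes beta4, which is prominent in the striatum and supports resurgent sodium current. Its level was 269.5, 221, 276 and 188 TPM in old D1 and 314, 421, 339 and 345 TPM in young D1. D2 neurons had 572, 333, 428 and 274 TPM in old and 389, 441, 455 and 456 TPM in young mice. No old D1 library reached the lowest young D1 library, whereas old D2 libraries spread from under to above all young ones. Fitted log2 fold changes were -0.67 (SE 0.20, adjusted p = 0.0329) for old over young D1 and -0.65 (SE 0.20, adjusted p = 0.0417) for D1 over D2 at 2 years. The call with age was lost without old D1 library 2 or 4 or young D1 library 2 or 4 (log2 -0.65 to -0.60, adjusted p = 0.0618 to 0.0955) and the one at 2 years without old D1 library 2 or 4, old D2 library 1 or 3 or young D2 library 1 or 3 (log2 -0.67 to -0.46, adjusted p = 0.0516 to 0.143). Removal of the GC and length trend also ended both calls (log2 -0.47, adjusted p = 0.12 with age, and log2 -0.32, adjusted p = 0.302 at 2 years). The age call was further lost with voom, in the TPM fits and with only the compared groups (adjusted p = 0.0668 to 0.206), and the 2-year call with voom (adjusted p = 0.3) and with only the compared groups (adjusted p = 0.157).

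Scn2b lies on the same strand next to Scn4b (chr9:45117782-45130070), with 8325 bases between them, and encodes beta2, which binds the alpha subunit through a disulfide bond. It measured 178, 155, 217 and 146 TPM in old D1 and 206, 206, 169.7 and 195 TPM in young D1, with overlap. In D2 neurons it was 349, 315, 265 and 283 TPM in old and 214, 265, 225 and 251 TPM in young mice, so that at each age every D2 library lay above every D1 library of that age. D1 over D2 was log2 -0.75 (SE 0.16, adjusted p = 0.00668) at 2 years and -0.15 (SE 0.16, adjusted p = 0.999) at 42 days. The 2-year call held in each of the 25 alternatives, with the log2 fold change between -0.84 and -0.67. The age changes were -0.31 (SE 0.16, adjusted p = 0.233) in D1 and 0.30 (SE 0.16, adjusted p = 0.996) in D2.

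Scn3b encodes beta3, a subunit prominent in immature neurons. It stood at 64.6, 95.3, 145 and 96.6 TPM in old D1, 77.8, 74.2, 94.5 and 98.2 TPM in young D1, 330.4, 139, 169.7 and 90.7 TPM in old D2 and 107, 235, 143 and 149 TPM in young D2. All 4 young D1 libraries lay under all 4 young D2 libraries, and old D2 library 1 was far above the rest of its group. On the log2 scale D1 over D2 was -0.73 (SE 0.34, adjusted p = 0.792) at 42 days and -0.73 (SE 0.34, adjusted p = 0.18) at 2 years, neither past the threshold.

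**Figure D3:**
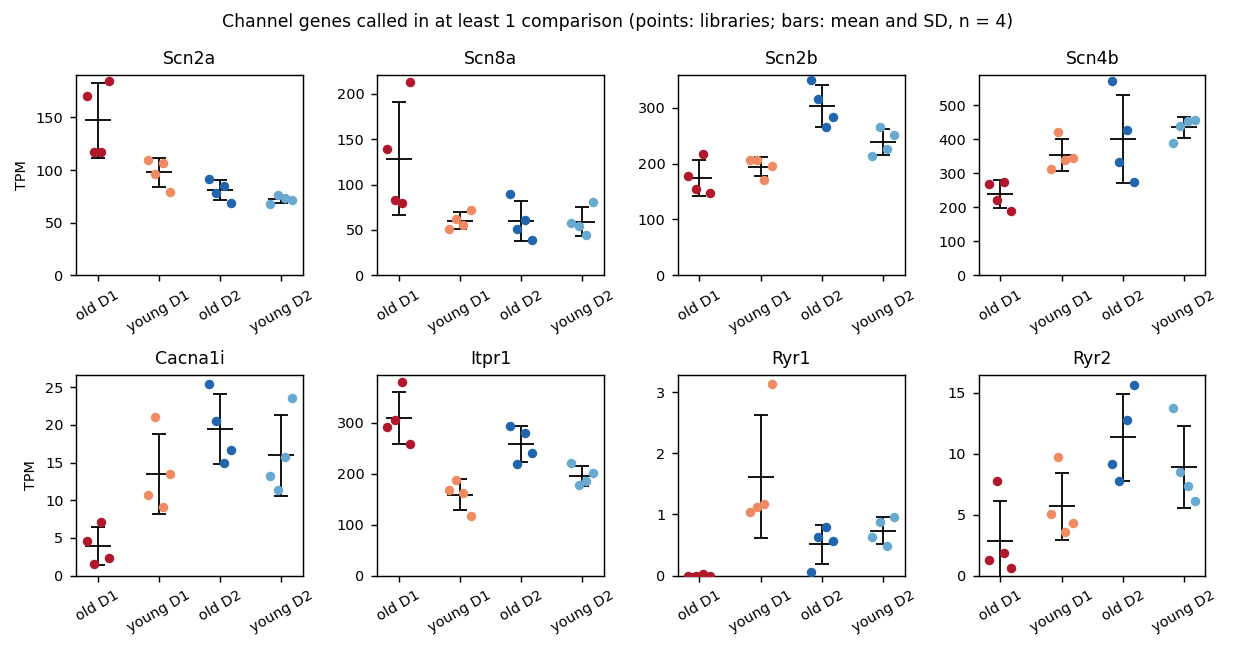
TPM of the 8 channel genes called in at least 1 comparison, 1 panel per gene, with points for libraries and bars for the mean and SD of 4 libraries in old D1, young D1, old D2 and young D2. Itpr1 sits at 259 to 380.4 TPM in old D1, above the 116 to 188 TPM of young D1, and Ryr1 lies at or near 0 in old D1.

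Among the calcium pores, the T-type gene Cacna1i was lower in old D1 neurons than in young D1 and in old D2 neurons, and the other 7 pores did not pass the threshold in any comparison. Cacna1i (Cav3.3, chr15:80287238-80398279, plus strand) encodes a low-voltage-activated channel with slow kinetics. Its level was 4.56, 1.58, 7.13 and 2.35 TPM in old D1 and 10.7, 21, 9.04 and 13.4 TPM in young D1. D2 neurons had 25.4, 20.6, 15 and 16.7 TPM in old and 13.2, 11.3, 15.7 and 23.5 TPM in young mice. No old D1 library reached the lowest library of any other group. The log2 fold change was -1.78 (SE 0.40, adjusted p = 0.00779) for old over young D1 and -2.17 (SE 0.40, adjusted p = 0.0025) for D1 over D2 at 2 years, against 0.25 (SE 0.39, adjusted p = 1.0) for old over young D2 and -0.14 (SE 0.39, adjusted p = 0.999) for D1 over D2 at 42 days. The 2-year call held in each of the 25 alternatives (log2 -2.60 to -1.45). The call with age held without each library in turn and was lost with the GC and length trend removed (log2 -1.19, adjusted p = 0.0794), with only the compared groups (adjusted p = 0.0936) and with voom (adjusted p = 0.116). The difference of its age changes, D1 minus D2, was -2.03 (SE 0.55, adjusted p = 0.0635); DESeq2 called it (adjusted p = 0.00754), as did the fit without old D1 library 3 (log2 -2.46, adjusted p = 0.0127).

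Of the other T-type genes, Cacna1h (Cav3.2) ranged over 9 to 30.9 TPM in old D1, 14.8 to 40.1 TPM in young D1, 16.3 to 57.9 TPM in old D2 and 11.1 to 24.2 TPM in young D2. Cacna1g (Cav3.1) was at or under 1.06 TPM in 14 of 16 libraries, with 5.81 TPM in old D1 library 2 and 24.1 TPM in young D1 library 4. Among the high-voltage-activated pores, which serve transmitter release and dendritic calcium entry, the P/Q-type Cacna1a ranged over 5.37 to 22 TPM in old D1, 16 to 29.4 TPM in young D1 and 5.24 to 47 TPM in D2 neurons, and the R-type Cacna1e over 41.4 to 54.1 TPM in old D1, 29.4 to 42.9 TPM in young D1 and 35.8 to 67.1 TPM in D2 neurons. Of the L-type pores, Cacna1c (Cav1.2) ranged over 2.39 to 8.81 TPM in old D1, 6.79 to 12.2 TPM in young D1, 11.3 to 22.6 TPM in old D2 and 9.85 to 15.6 TPM in young D2. Its D1 and D2 libraries at 2 years did not overlap; the log2 fold change was -1.10 (SE 0.39, adjusted p = 0.0793), and DESeq2 called it (adjusted p = 0.0231). Cacna1d (Cav1.3), known for its role in spine plasticity of D2 neurons, ranged over 1.89 to 6.23 TPM in all libraries.

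The alpha2delta subunits, the targets of gabapentin in the case of alpha2delta1 and alpha2delta2, gave no call in any comparison. Cacna2d2 varied widely between libraries. It measured 340.1, 166, 199 and 35.7 TPM in old D1 and 32.2, 56.2, 89.3 and 231 TPM in young D1, and 135, 86.1, 57.2 and 53 TPM in old D2 and 30.9, 88.2, 35.9 and 26.3 TPM in young D2. Within old D1 and within young D1 the highest library was several times the lowest, and the groups overlapped. Old over young was log2 0.32 (SE 0.40, adjusted p = 0.671) in D1 and 0.79 (SE 0.41, adjusted p = 0.945) in D2. Because Cacna2d2-206 is short, it weighs more in the gene's TPM than in its count. It held 30.6, 34.1, 13.2 and 0% of the gene's count in old D1 and 7.95, 5.35, 11.4 and 0% in young D1. With the GC and length trend removed the age change in D1 was called (log2 1.71, adjusted p = 0.015), on the GC content of that short transcript. Cacna2d3 stood at 31.2 to 49.5 TPM in old D1, 48.4 to 77.2 TPM in young D1, 50.8 to 72.1 TPM in old D2 and 46.4 to 65.7 TPM in young D2. Its log2 fold change of old over young D1 was -0.72 (SE 0.27, adjusted p = 0.0922), and the fits with the trend removed (log2 -0.99, adjusted p = 0.0424) and without old D1 library 4 (log2 -0.94, adjusted p = 0.0273) called it. Cacna2d1 ranged over 30.1 to 71.3 TPM in old D1 and 19.9 to 63.5 TPM elsewhere, and Cacna2d4 was at most 2.57 TPM. Its D1 over D2 difference at 2 years, from near-absent values, was log2 3.15 (SE 2.08, adjusted p = 0.375), and the fit without old D2 library 1, which left 0 TPM in each remaining old D2 library, called it (adjusted p = 0.0414).

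The calcium beta subunits were abundant and not called in any comparison by the edgeR test. Cacnb4 (beta4, the gene disrupted in the lethargic mouse) measured 212, 236, 187 and 209.6 TPM in old D1, 221, 157, 177 and 180 TPM in young D1, 172, 191, 186 and 249 TPM in old D2 and 248, 203, 200.2 and 235 TPM in young D2, with overlap between all groups. Its log2 fold change was 0.12 (SE 0.16, adjusted p = 0.68) for old over young D1 and 0.21 (SE 0.16, adjusted p = 0.455) for D1 over D2 at 2 years. Its main isoform has the lowest GC content of the members, 38.5%, and after removal of the GC and length trend both values turned to the other sign and were called (log2 -0.93, adjusted p = 0.00154, and log2 -0.65, adjusted p = 0.0144).

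Cacnb2 (beta2, the main beta subunit of cardiac L-type channels) measured 159, 206, 162 and 115 TPM in old D1, 78, 103, 194 and 98.6 TPM in young D1, 131, 133, 119 and 120.2 TPM in old D2 and 150, 144, 124 and 185 TPM in young D2. Young D1 libraries 1, 2 and 4 were the lowest of all, and library 3 was among the highest. Its log2 fold change was 0.50 (SE 0.18, adjusted p = 0.0876) for old over young D1, called by DESeq2 (adjusted p = 0.0419) and at -0.01 with the trend removed, and -0.63 (SE 0.18, adjusted p = 0.294) for D1 over D2 at 42 days, called by voom (adjusted p = 0.0177). Cacnb3 (beta3) measured 90.8, 129, 138 and 49.1 TPM in old D1, 104, 121, 103 and 113 TPM in young D1, 134, 112, 108 and 104 TPM in old D2 and 51.5, 135, 82 and 129 TPM in young D2. The groups overlapped, and the log2 fold change was -0.24 (SE 0.29, adjusted p = 0.66) for old over young D1 and 0.13 (SE 0.29, adjusted p = 1.0) for old over young D2. Cacnb1 (beta1) ranged over 40.4 to 83.5 TPM in old D1, 59.1 to 109 TPM in young D1, 79.7 to 107 TPM in old D2 and 69.8 to 153 TPM in young D2.

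The HCN genes were low, and none was called. Hcn2 ranged over 0.17 to 3.7 TPM in old D1, 3.28 to 17.3 TPM in young D1, 3.83 to 9.1 TPM in old D2 and 1.5 to 13.5 TPM in young D2. The old D1 libraries lay under every old D2 library, and old D1 library 3 overlapped the young D1 range. Fitted log2 fold changes of Hcn2 were -2.37 (SE 0.95, adjusted p = 0.116) for old over young D1, called by DESeq2 (adjusted p = 0.0269), and -1.98 (SE 0.94, adjusted p = 0.193) for D1 over D2 at 2 years. Hcn3 and Hcn4 were at 0 TPM in old D1 libraries 1, 2 and 4 and at most 2.91 TPM in any library. Nalcn ranged over 23.9 to 54.1 TPM in old D1, 16.3 to 27 TPM in young D1 and 11.7 to 31.1 TPM in D2 neurons, with a log2 fold change of 0.66 (SE 0.33, adjusted p = 0.198) for old over young D1.

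Among the store-release channels, Itpr1 rose with age in D1 neurons, and the ryanodine receptor genes Ryr1 and Ryr2 were low in old D1. Itpr1 (chr6:108213096-108551109, plus strand) encodes the IP3 receptor that dominates in central neurons. It measured 292, 305, 380.4 and 259 TPM in old D1 and 168, 188, 162 and 116 TPM in young D1. In D2 neurons it was 294, 218, 279 and 239.6 TPM in old and 221, 177, 185 and 201 TPM in young mice. Every old D1 library exceeded every young D1 library, and old D2 libraries lay above the young D2 range except library 2. The log2 fold change of old over young was 0.88 (SE 0.15, adjusted p = 0.00105) in D1 and 0.31 (SE 0.15, adjusted p = 0.882) in D2, and the D1 minus D2 difference of these changes was 0.57 (SE 0.21, adjusted p = 0.156). The D1 call held without each library in turn (log2 0.78 to 0.96) and was lost with the GC and length trend removed (log2 0.41, adjusted p = 0.119). For D1 over D2 neurons it was -0.21 (SE 0.15, adjusted p = 0.999) at 42 days and 0.36 (SE 0.15, adjusted p = 0.125) at 2 years, neither past the threshold.

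Ryr1 (chr7:29003344-29125179, minus strand), the ryanodine receptor of skeletal muscle, was close to the limit of detection in old D1. Its rounded counts were 0, 0, 10 and 0 in old D1 and 379, 366, 543 and 1200 in young D1. In D2 neurons they were 20, 252, 429 and 111 in old and 186, 371, 189 and 373 in young mice. Of the old D1 libraries 3 had no count, and each library of the other groups had at least 20. The log2 fold change was -7.77 (SE 1.58, adjusted p = 0.00419) for old over young D1 and -5.86 (SE 1.46, adjusted p = 0.0157) for D1 over D2 at 2 years; with 10 counts in all of old D1, its size depends on the small count that the fit adds. Without old D1 library 3, which held those counts, the values were -12.34 and -10.44. The age call was lost when only the compared groups were fitted (adjusted p = 0.0611). The 2-year call was lost in that fit, with voom and in the TPM fits (adjusted p = 0.0727 to 0.297). The D1 minus D2 difference of its age changes was -7.18 (SE 1.84, adjusted p = 0.0524); DESeq2 called it (adjusted p = 0.000103), as did the fits without old D1 library 3 or 4 or old D2 library 1 (log2 -11.76 to -6.80, adjusted p = 0.0045 to 0.0499).

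Ryr2 (chr13:11553102-12106945, minus strand), the cardiac ryanodine receptor and the most widespread one in brain, measured 1.24, 7.73, 1.87 and 0.64 TPM in old D1 and 5.07, 9.72, 3.61 and 4.31 TPM in young D1. The D2 values were 9.17, 7.72, 12.8 and 15.7 TPM in old and 13.8, 8.5, 7.31 and 6.1 TPM in young mice. Old D1 libraries 1, 3 and 4 lay under all others, and library 2 lay within the range of young D1. At 2 years D1 over D2 was log2 -1.89 (SE 0.57, adjusted p = 0.0419), and -3.10 without old D1 library 2. Leaving out any of old D1 libraries 1, 3 and 4, the 4 old D2 libraries, young D1 library 1 or young D2 libraries 2, 3 and 4 ended the call (log2 -2.06 to -1.58, adjusted p = 0.05 to 0.0948), as did voom (adjusted p = 0.0869) and the fit of the compared groups alone (adjusted p = 0.163). That of old over young D1 was -1.10 (SE 0.56, adjusted p = 0.217), and without old D1 library 2 it was -2.31 (adjusted p = 0.00436); the difference of the age changes was then called as well (log2 -2.55, adjusted p = 0.0374). Ryr3 ranged over 2.6 to 46.8 TPM in old D1, 5.07 to 11.2 TPM in young D1, 5.7 to 15.2 TPM in old D2 and 11.8 to 27.9 TPM in young D2. Its mean TPM was higher in old than in young D1, but the log2 fold change fitted on counts was -0.26 (SE 0.45, adjusted p = 0.778). The short retained-intron transcript Ryr3-206 held up to 69.5% of the gene's TPM in an old D1 library and at most 15.6% in young D1. Itpr2 was at most 2.83 TPM.

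In the deposited isoform estimates the old D1 libraries stood apart from all others for Scn8a, and from the old D2 libraries for Cacna1b. The transcript named Scn8a-203 in GENCODE M21 held 98.5, 70.5, 60.2 and 99.6% of the Scn8a count in old D1 and 0, 0, 36.9 and 56% in young D1. In D2 neurons it held 11.3, 0, 2.79 and 0% in old and 0, 0, 0 and 42.9% in young mice. All 4 old D1 values exceeded all 12 others, which lay at or under 56%. Its length in the tables differs from that in GENCODE M21, so nothing is said of its structure.

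Cacna1b (Cav2.2, chr2:24603887-24763152, minus strand) encodes the N-type pore that triggers transmitter release. The gene as a whole had 25.2, 30.3, 38.1 and 7.45 TPM in old D1 and 28.1, 28.5, 29 and 26 TPM in young D1, with a log2 fold change of -0.28 (SE 0.33, adjusted p = 0.649). Its transcript Cacna1b-204 held 0, 0, 13 and 0% of the count in old D1 and 82.6, 95.4, 7.6 and 95.2% in young D1. In D2 neurons it held 80.9, 77.4, 96.8 and 96.5% in old and 0, 72.1, 96.2 and 86.6% in young mice. The remainder fell mostly to Cacna1b-202. At 2 years the D1 and D2 shares did not overlap, while at 42 days both kinds spanned nearly the whole range, with 1 library in each that favoured Cacna1b-202. The coding sequence of Cacna1b-204 holds a whole exon of 108 bases, or 36 codons, that Cacna1b-202 lacks, at chr2:24618255-24618362 on the minus strand. It also holds a further 3 bases at another exon. Coding bases held only by Cacna1b-202 were not looked for. The exon is shown as the longest stretch of coding sequence that Cacna1b-204 holds and Cacna1b-202 lacks. At 9736 and 9655 bases the whole transcripts differ in length by less than this exon, so they differ at other places too. It was read from the GRCm38 genome on the strand of the gene, 5′ to 3′, with no base marked in capitals.
Cacna1b-204 exon: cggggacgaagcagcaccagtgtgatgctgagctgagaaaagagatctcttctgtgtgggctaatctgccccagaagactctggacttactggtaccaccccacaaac

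Scn1a-203 held 74.7, 0, 44.1 and 0% of the Scn1a count in old D1 and 61.7, 68.3, 86.1 and 69.2% in young D1, against 90.8, 65.5, 37.5 and 68.8% in old D2 and 79.3, 85.4, 62.8 and 57.6% in young D2. Old D1 libraries 2 and 4 had none of Scn1a-203, and every library outside old D1 had at least 37.5% of it. Cacna1c-203 held all of the Cacna1c count in each old D1 library and 35.5, 75.6, 49.9 and 47% in young D1, against 97.7, 55.6, 10.9 and 72.5% in old D2 and 99, 85.4, 99.6 and 99.7% in young D2, so that young D2 lay close to old D1. Scn2a-202 held 75, 100, 51.7 and 48.7% of the Scn2a count in old D1 and 11.1, 0.01, 36.2 and 0% in young D1, against 51.5, 51.3, 0 and 0% in old D2 and 0, 0, 4.54 and 0% in young D2. These shares come from RSEM's model of which transcript each fragment belongs to and are a description. The part of the shorter fragments of the old D1 libraries in them was not tested.

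**Figure D4:**
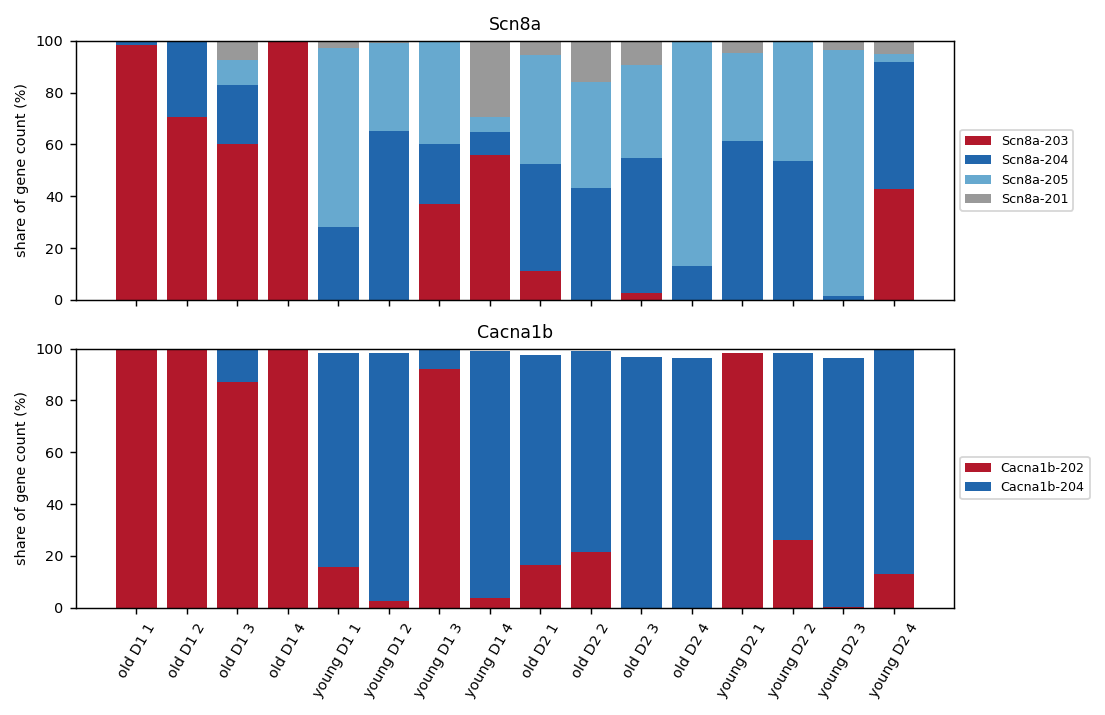
Share of the gene's count (percent, vertical axis) assigned to each main transcript of Scn8a (top) and Cacna1b (bottom), with 1 bar per library and the groups in the order old D1, young D1, old D2 and young D2. Scn8a-203 takes 60.2 to 99.6% in old D1 and at most 56% elsewhere, and Cacna1b-204 takes at most 13% in old D1, as it does in young D1 library 3 and young D2 library 1.

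The age change of the channel genes in D1 neurons ran with the GC content of their main isoforms. Across the 32 tested members, Spearman's rho between the log2 fold change and GC content was -0.55, against -0.34 over all genes; these are correlations across genes of the same libraries and genes are not independent replicates. For D1 over D2 neurons at 2 years it was -0.42 in the members and -0.30 over all genes, and for old over young D2 it was 0.11 in the members. The members' main isoforms had a median GC content of 52.6% and a median length of 7030 bases, against 49.9% and 2473 bases over all genes with a value. The main isoform is that of highest mean TPM, with GC content and length from GENCODE M21. Deposited lengths differ for some, as for Scn8a-203 (7030 bases in GENCODE M21, 10176 deposited) and Scn1a-206 (1690 and 660). For Scn1a, Ryr3 and Cacna2d2 it was a short transcript. The trend removal used the same values. When the trend with GC content and length was removed within each library, the rho of the members for the age change in D1 became 0.04. In that fit 4 members were called with age in D1, Ryr1, Cacnb4 and Cacna2d3 lower and Cacna2d2 higher, and only Ryr1 was also called without the removal. At 2 years 6 were called, Scn8a higher and Scn2b, Cacna1i, Cacnb4, Ryr1 and Ryr2 lower, of which all but Cacnb4 were also called without it. The removal also turned the sign of the age change in D1 for Scn1a, Scn2a, Scn3a, Scn3b, Cacna1a, Cacna1e, Cacna1h, Cacna2d1, Cacnb1, Cacnb3 and Nalcn, which were called in neither fit, with Nalcn at -0.14 and Cacnb3 at 0.65 after it. The part of the GC trend in these changes was not tested beyond that fit.

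**Figure D5:**
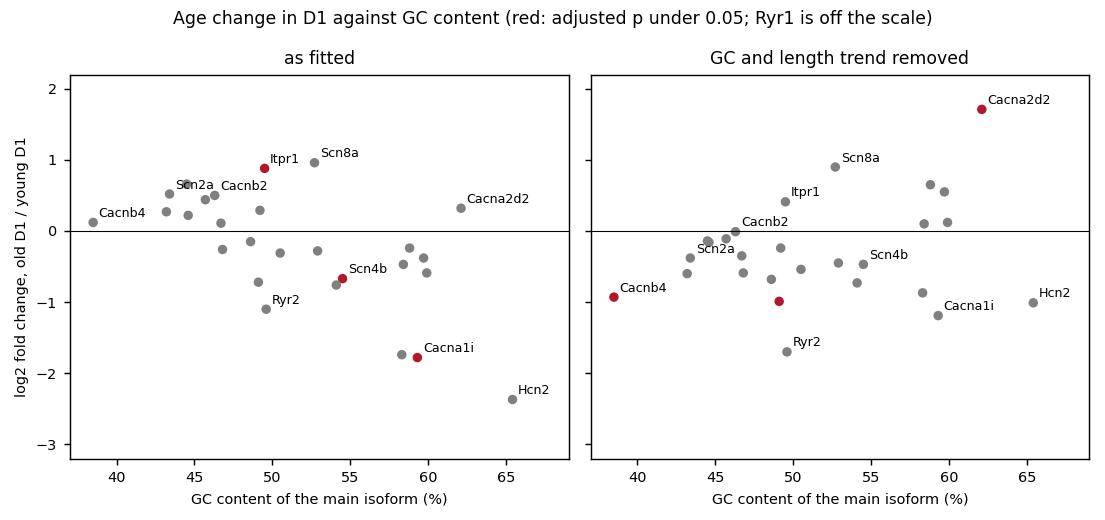
Log2 fold change of old over young D1 (vertical axis) against the GC content of the main isoform (horizontal axis, percent), as fitted (left) and after removal of the GC and length trend (right), for members with a mean of at least 1 TPM. Red points passed an adjusted p under 0.05; Itpr1 lies at 0.88 on the left and 0.41 on the right, and Cacnb4 at 0.12 and -0.93.

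Of 27 genes for calcium pumps, exchangers, store-operated entry and channel partners, 2 rose and 6 fell with age in D1 neurons, with a median log2 fold change of -0.63, against -0.06 over all genes. Of 15 partners of sodium, HCN and leak channels, 2 rose and 1 fell, with a median of 0.23. Over all genes 10.8% were called in this comparison. With the GC and length trend removed, 1 calcium partner rose and 4 fell, and 0 sodium partners rose and 2 fell. Hpca, which encodes the neuronal calcium sensor hippocalcin, had 2935, 2784, 2962 and 3307 TPM in old D1 and 5919, 8879, 6671 and 5732 TPM in young D1 (log2 -1.24, SE 0.17, adjusted p = 0.00018). It fell, as did Jph4, which links the endoplasmic reticulum to the plasma membrane (log2 -0.81, SE 0.16, adjusted p = 0.0029). Genes that rose included Calb1, the calcium buffer calbindin (log2 1.09, SE 0.20, adjusted p = 0.00157), the ankyrin gene Ank2 (log2 0.91, SE 0.21, adjusted p = 0.00889) and Unc80, a partner of Nalcn (log2 0.81, SE 0.21, adjusted p = 0.0168). In the fit with that trend removed these 5 genes lost their calls: Jph4 stood at 0.03, the Hpca change was -0.44 (adjusted p = 0.12), and Calb1, Ank2 and Unc80 had adjusted p = 0.375 to 0.68. Ank2 and Unc80 also lost their calls in the TPM fits and with only the compared groups (adjusted p = 0.0584 to 0.147). Unc80 further lost it with voom (adjusted p = 0.0869) and without old D1 library 2 or young D1 library 1 or 4 (log2 0.64 to 0.76, adjusted p = 0.055 to 0.0676).

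In D2 neurons 0 of the 27 and 0 of the 15 partners were called with age by edgeR, with 2 and 1 at an unadjusted p under 0.05. At 42 days 0 of either list were called between the types, with 3 of each at an unadjusted p under 0.05. Hpca was among these in both comparisons, without overlap of the libraries. Its log2 fold change was -0.61 (SE 0.16, adjusted p = 0.363) for old over young D2. For D1 over D2 at 42 days it was -0.70 (SE 0.16, adjusted p = 0.074). With the GC and length trend removed that value was -0.80 and was called (adjusted p = 0.0378). DESeq2 called 0 partners with age in D2 and 1 calcium partner, higher in D1, at 42 days; the other tools run called at most 1 per direction and list in either comparison. At 2 years 2 calcium partners were higher and 4 lower in D1 than in D2 neurons, and 1 sodium partner was higher and 2 lower, against 9.6% of all genes called. With the GC and length trend removed these counts were 0 and 2 for calcium and 0 and 1 for sodium partners. Hpca was at 3000 ± 221 TPM in old D1 and 8360 ± 1890 TPM in old D2 (log2 -1.34, SE 0.17, adjusted p = 5.76e-05). The Hpca call held with the GC and length trend removed. Jph4 was also lower (log2 -0.92, SE 0.16, adjusted p = 0.00115), with -0.02 under that removal. Rims1, a scaffold of presynaptic calcium channels, was higher (log2 1.24, SE 0.29, adjusted p = 0.0103), as were Fgf13, a ligand of sodium channel tails (log2 1.37, SE 0.32, adjusted p = 0.0109), and Calb1 (log2 0.73, SE 0.19, adjusted p = 0.0228). With the trend removed, Rims1 stood at 0.75 (adjusted p = 0.0907), Fgf13 at 0.71 (adjusted p = 0.153) and Calb1 at -0.07 (adjusted p = 0.861), and with only the compared groups all 3 lost their calls (adjusted p = 0.0704 to 0.108). Fgf13 lost its call without old D2 library 2 (log2 1.19, adjusted p = 0.0524). Calb1 lost its call without old D1 library 1 or 2 or old D2 library 1, 2 or 4 (log2 0.58 to 0.72, adjusted p = 0.0545 to 0.0902) and in the TPM fits (log2 0.56, adjusted p = 0.115 to 0.125).

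The D1 minus D2 difference of the age changes was called for 3 partners, each negative, against 1.77% of all genes. Atp2b4, a calcium pump of the plasma membrane, differed by log2 -2.50 (SE 0.60, adjusted p = 0.0387), and Jph4 by log2 -0.89 (SE 0.22, adjusted p = 0.0461). Atp2b4 lost its call in 11 of the 16 fits that left out a library (log2 -2.71 to -2.26, adjusted p = 0.0528 to 0.0995), namely those without old D1 library 1 or 2, any old D2 library, young D1 library 2 or 4, or young D2 library 2, 3 or 4. Jph4 lost it in 13 of 16 (log2 -0.99 to -0.85, adjusted p = 0.0583 to 0.118), all but those without old D1 library 3 or 4 or old D2 library 4. Atp2b4 also lost its call with voom and in the TPM fits (adjusted p = 0.11 to 0.165), and Jph4 in these, with RLE scaling and with no count filter (adjusted p = 0.0561 to 0.0712). The Jph4 difference turned to 0.05 (adjusted p = 0.971) when the GC and length trend was taken out.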

How the data were processed

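Purified mRNA was amplified into libraries with NuGEN Ovation V2, per the labels' protocols. The submitters' processing notes name STAR 2.5.1b, RSEM 1.2.20 and the mm10 build; which annotation release and strand setting applied is not given in the sources used here. The deposited tables hold RSEM expected counts, which are estimated fragment counts, per the file headers. They also hold TPM by the authors' RSEM run, each isoform's percent share of its gene, and lengths in bases, per the file headers. RSEM shares fragments between similar or overlapping genes by a model, so such values are uncertain.

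The members, the partner lists and the markers were chosen with earlier results of these data known. Expected counts were rounded (20.0% of nonzero values were not whole), genes were filtered with filterByExpr, scaled by TMM and fitted over all 16 libraries with 1 mean per group by edgeR 4.0.16 (limma 3.58.1, R 4.3.3), and called at an adjusted p under 0.05. TPM, isoform shares and class sums are descriptive. Values in every library are given for members called in any comparison, for members without overlap in an age comparison that an alternative called, and for the 8 highest by TPM. Up to 3 called partners per direction, by smallest adjusted p, are named; 1 that met this rule is not reported here. Isoform shares were recomputed from expected counts. Transcripts, and members singled out beyond these rules, were picked after their values were seen. Names, positions, GC content, the lengths used with it and sequences came from GENCODE M21 on GRCm38, matched by ID for 37693 genes and 91320 isoforms. Alternatives were RLE scaling, no filter, DESeq2 1.42.0, only the compared groups, voom with library weights, limma-trend on log2(TPM + 0.5), with 0.1 or 1 in place of 0.5, removal of the GC and length trend by a spline in each library (on 13548 genes with a value), and leaving out each library. Code was tested on simulated data, with 100 genes changed by log2 1 and 100 by log2 2 in old D1. For old over young D1 the edgeR test called 7% and 35% of them in the right direction, and 0.015% of unchanged genes. The changed genes were drawn at random among 13499, not from the members. They were a far smaller share than the 10.8% called in the data, so these rates do not carry over to the members. A gene that was not called is still not shown to be unchanged.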

Additional observations from a re-analysis of the deposited data

Results flagged for a closer look

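Of 148 groups of 4 libraries tested for a value far from the other 3, 9 were marked. For normally distributed values chance marks about 1 in 20, and whether these TPM values are so distributed was not tested. The 148 were not all of channel genes, whereas all 9 marks were. The rate among channel genes alone was therefore higher than 9 of 148, and it was not compared with chance. Young D1 library 4 was the distant one for 4 of them. It had 29.38 TPM of Cacna1a against 15.98 to 18.23 TPM in the other young D1 libraries, 24.08 TPM of Cacna1g against 0.01 to 1.06 TPM, 17.3 TPM of Hcn2 against 3.28 to 4.63 TPM, and 3.13 TPM of Ryr1 against 1.04 to 1.17 TPM. Old D1 library 4 had 2.39 TPM of Cacna1c against 7.87 to 8.81 TPM in the other old D1 libraries, and 54.14 TPM of Nalcn against 23.94 to 29.01 TPM. Old D1 library 2 had 5.81 TPM of Cacna1g against 0 to 0.01 TPM. Old D2 library 1 had 24.95 TPM of Scn3a against 13.31 to 14.72 TPM in the other old D2 libraries, and young D2 library 2 had 88.22 TPM of Cacna2d2 against 26.29 to 35.92 TPM in the other young D2 libraries.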

How the results depend on the processing

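The 11 calls of channel genes kept their direction in all 275 refits and their call in 222 of them. With age in D1, 4 members were called (1 higher, 3 lower), against 7 with DESeq2 (3 higher, 4 lower), 2 with voom (1 of each direction), 1 with only the compared groups (higher), and 3 to 5 without each library. At 2 years 7 were called, against 3 with voom, 2 with only the compared groups, and 4 to 7 without each library, the lowest without old D2 library 3. At 42 days voom called 1 and the fits without each library 0. For age in D2 every setting run called 0, as did the fit without the 4 old D1 libraries, an alternative chosen after seeing the data, for both of these comparisons. The difference of the age changes was called for 3 members with DESeq2 and 0 to 2 without each library, with 2 without old D1 library 3 and 1 without old D1 library 2 or 4 or old D2 library 1.

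Among the changes called in any setting, removal of the GC and length trend was the 1 alternative that turned a sign; it also turned uncalled members, named beside the GC content result. For age in D1, Cacnb2 stood at -0.01, Cacnb4 at -0.93 and Jph4 at 0.03; at 2 years, Cacnb4 at -0.65 and Calb1 at -0.07; for the difference of the age changes, Jph4 at 0.05. The 15 partner calls were kept in 303 of 372 refits. The median log2 fold change of all genes for age in D1 was -0.06, and -0.18 after that removal, -0.38 with voom, and -0.33, -0.21 and -0.15 on log2 TPM with 0.1, 0.5 and 1 added. The cause of the lost calls was not tested. A fit of only the compared groups estimates the spread from their libraries alone. Over all genes it called 192 higher and 113 lower for age in D1, against 750 and 758 with all 16 libraries. At 2 years it called 220 and 134, against 699 and 638. At 42 days it called 46 and 52, against 28 and 29, and for age in D2 21 and 18, against 9 and 2. The biological coefficient of variation, as 1 common value over all 13926 genes tested, was 97.8%, which is not the spread of the channel genes alone. The SE of the members' log2 fold change with age in D1 ran from 0.15 for Itpr1 to 2.33 for Cacna1g. At 4 libraries a group, the spread between libraries limits which changes can be called. The values of Ryr1 in old D1 and of Cacna2d4 rest on few fragments. No paired analysis was possible because the labels give no replicate numbers shared between groups.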
